A study of Mus musculus with 44 samples.

Results

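RNA of the hypothalamus was compared with that of the remaining brain in furosemide-treated mice that had not been gratified, on 8 of the 44 two-colour arrays of the series. The members are the 4 hypothalamus arrays and the 4 arrays of brain without hypothalamus that carry this treatment in their titles, over all 9554 features of the deposited table. All mice were adult C57/Bl6 males, and no mutant allele is named. The study concerns sodium craving: furosemide is a loop diuretic that blocks salt reabsorption in the kidney, and other mice of the series were given ACTH, were gratified after either treatment, or served as controls. Dose and time are not stated in the labels used here. The other groups used below are furosemide gratified (4 hypothalamus and 4 brain arrays), ACTH (5 and 4), ACTH gratified (6 and 5) and control (4 and 4). Each value is a log2 ratio of tissue RNA, labelled with Cy5, over a commercial universal mouse reference RNA, labelled with Cy3 on every array, with no array labelled the other way round.

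The hypothalamus is a small region at the base of the forebrain that regulates water and salt balance, feeding, temperature and the pituitary. Its neurons are told apart largely by the peptides they release: magnocellular neurons make vasopressin, which retains water, and oxytocin, neurons of the lateral hypothalamus make orexin or melanin-concentrating hormone, and neurons of the arcuate nucleus make agouti-related peptide, pro-opiomelanocortin or growth hormone-releasing hormone. The rest of the brain is dominated by cortex, hippocampus, striatum, cerebellum and brainstem, each with transcription factors and signalling genes of its own. In tissue pieces of this kind, fewer cells of a type and less RNA per cell cannot be told apart.

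Peptide genes headed the genes that were higher in the hypothalamus. Among those that were lower, Neurod2 and Neurod6, transcription factors of cortical excitatory neurons, headed the features tied with another on at most 2 of the 4 arrays of either group. The DNA before the start of 6 of these genes is shown so that their differences can be set beside the letters of their promoters. Each line gives the 250 bases before the annotated start, 5′ to 3′ on the strand of the gene, from RefSeq (GRCm38.p6). The windows are chr2:130575919-130576168 (plus strand) for Oxt, chr2:130582589-130582838 (minus) for Avp, chr11:100762932-100763181 (minus) for Hcrt, chr10:88090822-88091071 (plus) for Pmch, chr11:98329646-98329895 (minus) for Neurod2 and chr6:55681264-55681513 (minus) for Neurod6. Capitals mark 3 motifs searched on both strands: TATAAA, a core promoter element, TGACC, a nuclear receptor half-site, and CAGATG, an E-box. The marked copies in these windows do not overlap each other.
Oxt: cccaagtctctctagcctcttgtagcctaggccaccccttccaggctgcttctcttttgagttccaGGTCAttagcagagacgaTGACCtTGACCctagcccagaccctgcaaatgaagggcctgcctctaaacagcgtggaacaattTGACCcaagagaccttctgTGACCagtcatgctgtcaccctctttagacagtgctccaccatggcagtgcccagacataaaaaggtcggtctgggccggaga
Avp: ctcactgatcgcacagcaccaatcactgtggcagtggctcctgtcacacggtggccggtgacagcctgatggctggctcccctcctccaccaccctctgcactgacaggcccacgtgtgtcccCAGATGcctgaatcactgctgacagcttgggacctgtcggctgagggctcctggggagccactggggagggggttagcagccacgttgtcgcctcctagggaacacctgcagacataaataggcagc
Hcrt: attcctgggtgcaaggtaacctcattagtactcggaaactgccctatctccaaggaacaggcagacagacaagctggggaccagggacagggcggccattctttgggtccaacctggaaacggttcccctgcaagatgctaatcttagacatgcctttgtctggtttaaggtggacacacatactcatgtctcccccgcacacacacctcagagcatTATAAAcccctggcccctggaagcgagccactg
Pmch: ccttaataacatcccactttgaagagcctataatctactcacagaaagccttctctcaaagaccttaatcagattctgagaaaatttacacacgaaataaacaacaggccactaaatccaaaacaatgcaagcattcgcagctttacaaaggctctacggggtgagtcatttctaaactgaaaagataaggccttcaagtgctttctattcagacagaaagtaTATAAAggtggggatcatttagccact
Neurod2: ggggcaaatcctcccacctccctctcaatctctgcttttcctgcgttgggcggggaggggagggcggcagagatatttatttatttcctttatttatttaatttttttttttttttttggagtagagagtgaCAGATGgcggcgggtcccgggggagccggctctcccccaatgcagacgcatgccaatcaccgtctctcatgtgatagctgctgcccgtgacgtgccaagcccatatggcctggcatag
Neurod6: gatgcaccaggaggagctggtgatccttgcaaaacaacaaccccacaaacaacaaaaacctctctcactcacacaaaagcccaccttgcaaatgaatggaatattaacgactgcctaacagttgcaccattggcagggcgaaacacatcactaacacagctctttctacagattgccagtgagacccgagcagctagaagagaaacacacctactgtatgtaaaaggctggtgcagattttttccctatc

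The Oxt window holds 5 copies of TGACC, and none of the other windows shown holds one. TATAAA starts at position -33 before Hcrt and -27 before Pmch, where -1 is the last base printed, CAGATG occurs once in each of the Avp and Neurod2 windows, and the Neurod6 window holds none of the 3 letter strings. Among all 32851 windows of this length in the reference table, 12.4% hold TATAAA, 35.2% TGACC and 14.4% CAGATG. Of the 15 genes with the largest differences upward, 13 have a window in the table, and 5 of those hold TATAAA, 6 TGACC and 2 CAGATG. Of the 15 with the largest differences downward, 11 have a window, and 2 hold each motif. A match is a description of the letters, and no binding was measured.

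On average, each array resembled the others of its tissue more than those of the other tissue, though the ranges overlapped. Brain replicate 3 had a lower r with brain replicate 1 (0.946) than with the hypothalamus arrays (0.948 to 0.953). Over all features, Pearson's r between arrays was 0.960 to 0.979 within the hypothalamus, 0.946 to 0.973 within the brain and 0.926 to 0.953 across tissues. The median feature had an SD of 0.091 in hypothalamus and 0.094 in brain over the 4 arrays. Values identical to that of another feature on the same array, called tied here, would result if weak spots had been set to a floor, and they made up 2.8 to 12% of a hypothalamus array and 7.5 to 12% of a brain array. The numbers that end the sample descriptions run in separate series whose meaning is not given: all 4 furosemide hypothalamus arrays have 2-digit numbers and all 4 furosemide brain arrays zero-padded ones, so within this treatment tissue and number series cannot be told apart. Values with the series as a factor, and within series in furosemide gratified and ACTH mice, stand beside the results.

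One brain array stood apart in its regional genes. The median over 21 striatum markers was 0.60 on brain replicate 1, against 1.19 to 1.46 on the other 3 brain arrays, and the median over 17 cerebellum markers was 1.23, against 0.27 to 0.77. Pcp2, a Purkinje cell gene, read 2.87 on brain replicate 1 and 0.24 to 0.84 on the other brain arrays, and Rgs9, a regulator of G proteins enriched in striatum, read 0.53 there and 1.75 to 1.90 on the others. On brain replicate 4, Pmch read 1.80 and Hcrt 1.29, above the other brain arrays. Results that rest on these arrays are given with and without them, and the part of these differences between arrays in the tissue differences was not tested.

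**Figure D1:**
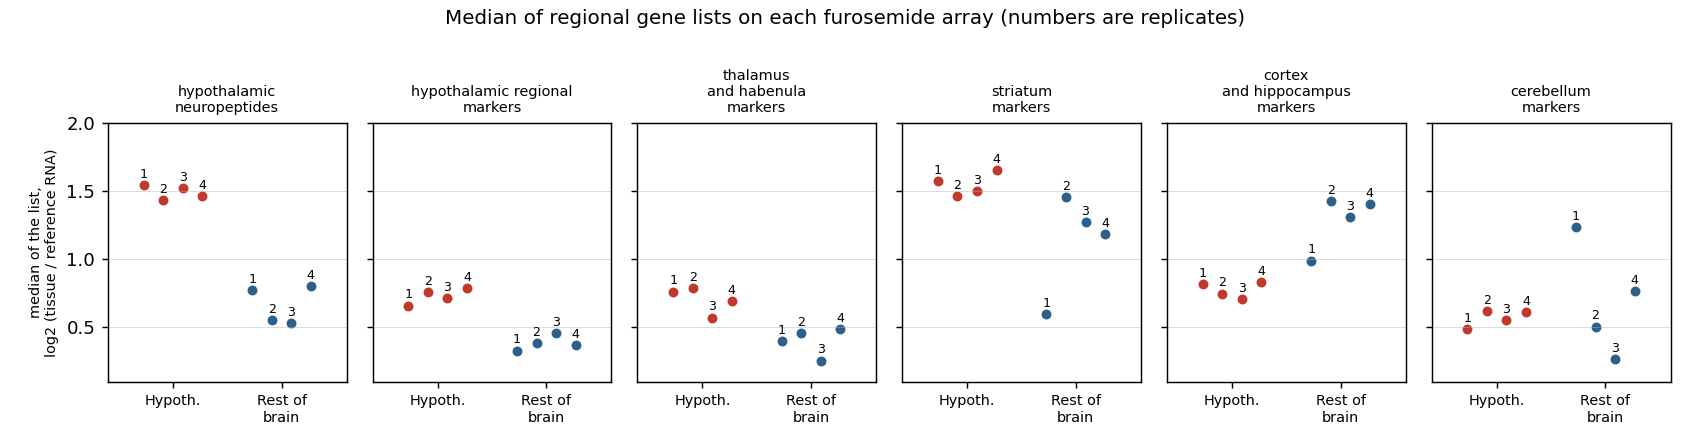
Median log2 ratio (tissue over reference RNA, vertical axis) of the measured members of 6 regional gene lists on each furosemide array, hypothalamus in red on the left and rest of brain in blue on the right of each panel, numbers giving the replicate. Brain replicate 1 lies lowest in striatum markers (0.60) and highest in cerebellum markers (1.23), while the neuropeptide medians do not overlap between tissues.

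The first question was which genes differ between the tissues after furosemide. With limma fitted to all 44 arrays and Benjamini-Hochberg adjustment over the 9554 features, 113 features were higher in the hypothalamus (1.18% of those tested) and 123 were lower (1.29%) at an adjusted p under 0.05. At an unadjusted p under 0.05 there were 1412 features (14.8%). Few differences were large: 8 of the higher and 9 of the lower features differed more than 2-fold. The 4 hypothalamus values did not overlap the 4 brain values for 108 of the higher features, where 14.3% of all features lay wholly above brain. They did not for 118 of the lower ones, where 6.11% lay wholly below it. The 15 genes named in each direction were picked among called features without such overlap. Their separation below follows from that rule. The median difference over all features was 0.02 on the log2 scale. Above 0 lay 5431 of the 9554 features and below it 4123. These counts and the called shares are the background for the list counts below.

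The neurohypophysial hormones had the largest differences. Oxt, which encodes oxytocin, had log2 ratios of 2.88, 2.99, 2.97 and 2.63 in hypothalamus, against 0.56, 0.55, 0.26 and 0.19 in brain. Avp, which encodes vasopressin, had 2.83, 3.02, 3.01 and 2.74 in hypothalamus, against 1.19, 1.03, 0.15 and 0.56 in brain. Every hypothalamus array lay far above every brain array for both genes, and Avp was the more variable of the pair in brain, where replicates 1 and 2 were high. The difference was 2.48 ± 0.28 for Oxt (standard error of the fit, n = 4 and 4, as for all differences below), a 5.58-fold ratio, and 2.17 ± 0.25 for Avp, a 4.50-fold ratio, each with a limma adjusted p of 6.23e-07.

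The peptides of the lateral hypothalamus came next. Hcrt, the orexin precursor, which sustains wakefulness, read 2.51, 2.72, 2.57 and 2.33 in hypothalamus, against 0.09, 0.35, 0.23 and 1.29 in brain. Pmch, the precursor of melanin-concentrating hormone, read 2.51, 2.75, 2.28 and 2.46 in hypothalamus, against 0.57, 0.67, 0.48 and 1.80 in brain. The groups did not overlap for either gene, and brain replicate 4 lay above the other brain arrays for both. Hcrt was 4.11-fold higher (log2 2.04 ± 0.25, limma adjusted p = 1.11e-06) and Pmch 3.07-fold higher (log2 1.62 ± 0.23, limma adjusted p = 2.77e-05). Without brain replicate 4 the differences were 2.31 and 1.92.

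Peptides of the arcuate and neighbouring nuclei differed less. Gal, which encodes galanin, a peptide that often coexists with other transmitters, read 1.60, 1.68, 1.75 and 1.59 in hypothalamus, against 0.93, 0.42, 0.28 and 0.52 in brain. Agrp, which drives feeding, read 1.27, 1.44, 1.71 and 1.47 in hypothalamus, against 0.34, 0.26, 0.33 and 0.51 in brain, where 3 of the 4 values were tied. Pomc, whose product is cut into melanocortins that restrain feeding, read 1.56, 1.46, 1.44 and 1.46 in hypothalamus, against 0.76, 0.55, 0.64 and 0.71 in brain. None of the 3 overlapped between tissues, and the Pomc arrays varied little within either. The differences were 1.12 ± 0.20 for Gal, 1.11 ± 0.16 for Agrp and 0.81 ± 0.13 for Pomc, with limma adjusted p of 0.000379, 2.21e-05 and 9.97e-05.

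Of the hypophysiotropic hormones, which travel to the pituitary in the portal blood, Ghrh, Trh and Gnrh1 were higher, while Sst, which encodes somatostatin, an inhibitor of growth hormone release, was not past the threshold (0.21 ± 0.18, limma adjusted p = 0.656). Ghrh, which releases growth hormone, read 0.78, 0.99, 1.09 and 0.94 in hypothalamus, against 0.23, 0.08, 0.24 and 0.23 in brain. Trh, which releases thyrotropin, read 1.19, 1.43, 1.47 and 1.42 in hypothalamus, against 0.78, 0.53, 0.54 and 0.59 in brain. Gnrh1, which releases the gonadotropins, read 0.26, 0.46, 0.48 and 0.26 in hypothalamus, against -0.39, -0.27, -0.22 and -0.17 in brain. All 3 genes separated the tissues without overlap, with Gnrh1 the closest to the reference RNA. Their differences were 0.76 ± 0.13, 0.77 ± 0.17 and 0.63 ± 0.11 in that order, with limma adjusted p of 0.000365, 0.00537 and 0.000268.

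Of the 32 measured genes on a list of 39 hypothalamic neuropeptides, 13 were higher and 2 lower, against 1.18% and 1.29% of all features. Above 0 lay 23, against 5431 of all 9554 features. The list's median difference was 0.38, against 0.02 over all features. Beside the genes above, the higher ones were Nts, which encodes neurotensin (0.83 ± 0.16), Prok2, a suprachiasmatic output peptide, by the feature PROK2g-s1 (0.38 ± 0.09), and Pdyn, the dynorphin precursor (0.65 ± 0.18, limma adjusted p = 0.0456). Pdyn lost the call without brain replicate 1, where it read 0.61 against 1.33 to 1.48 on the other brain arrays, and without brain replicate 4 or any hypothalamus array, with adjusted p up to 0.242. The second Prok2 feature did not differ past the threshold (0.07 ± 0.10), and the first lost its call without hypothalamus replicate 4 (adjusted p = 0.0760). The 2 lower members were Bdnf, a growth factor of cortical neurons (-0.50 ± 0.14), and Grp, which encodes gastrin-releasing peptide (-0.52 ± 0.15). Grp missed the threshold in each of the 8 fits that left out a furosemide array (adjusted p 0.0581 to 0.230), and 7 of those fits had no lower member of the list.

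Several peptides that the hypothalamus shares with other regions were not past the threshold. Npy, which is made in the arcuate nucleus and in cortical interneurons, read 2.36, 2.38, 2.37 and 2.29 in hypothalamus, against 2.24, 2.60, 2.56 and 2.50 in brain. Cartpt read 2.29, 2.39, 2.41 and 2.33 in hypothalamus, against 2.20, 1.58, 1.65 and 1.65 in brain, so that only brain replicate 1 came near the hypothalamus. Vip, which encodes vasoactive intestinal peptide of cortical interneurons and the suprachiasmatic nucleus, read 1.04, 0.90, 1.13 and 1.03 in hypothalamus, against 1.46, 1.89, 1.78 and 2.01 in brain. The Vip groups did not overlap, yet its difference of -0.76 ± 0.22 had a limma adjusted p of 0.0503, just outside the threshold, and without brain replicate 1 it passed at 0.0395.

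**Figure D2:**
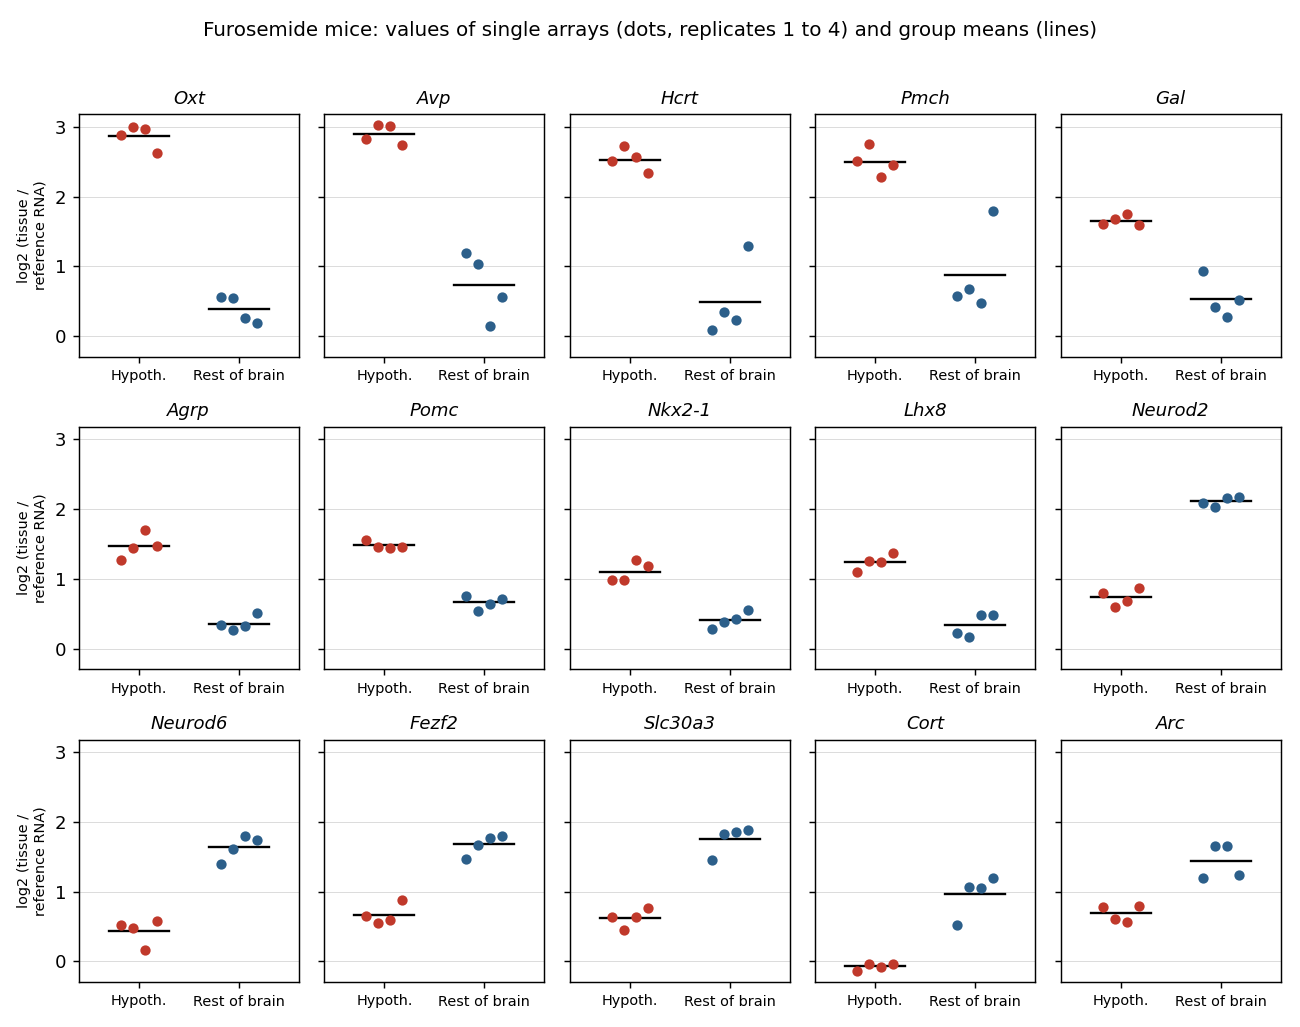
Log2 ratio of tissue over reference RNA (vertical axis) of 15 genes on each furosemide array, hypothalamus in red on the left and rest of brain in blue on the right of each panel, with black lines at the group means. The groups are separated in every panel, which the naming rule required for all genes shown but Agrp, Nkx2-1 and Arc. In brain replicate 4, the last blue dot, Pmch (1.80) and Hcrt (1.29) lie above the other brain arrays.

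Transcription factors that mark hypothalamic territory followed the peptides. Nkx2-1, which specifies the ventral hypothalamus, read 0.98, 0.99, 1.27 and 1.18 in hypothalamus, against 0.29, 0.38, 0.43 and 0.56 in brain. Lhx8, a LIM homeobox factor of ventral forebrain neurons, read 1.10, 1.26, 1.24 and 1.38 in hypothalamus, against 0.22, 0.17, 0.48 and 0.48 in brain. Zfhx3, a zinc finger and homeobox factor of the suprachiasmatic nucleus, read -0.11, 0.01, 0.18 and -0.25 in hypothalamus, against -0.94, -0.94, -0.98 and -0.96 in brain. The brain arrays were nearly level for Zfhx3, and no hypothalamus value overlapped them for any of the 3 genes. Their differences were 0.69 ± 0.10, 0.91 ± 0.12 and 0.92 ± 0.13, with limma adjusted p of 2.77e-05, 3.54e-06 and 1.74e-05.

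Of 16 measured genes on a list of 36 hypothalamic regional markers, 3 were higher and none lower by limma, against 1.18% and 1.29% of all features. Above 0 lay 15, against 5431 of all 9554 features, and the median was 0.42. The third call was Six3, a homeobox gene of the anterior forebrain that the striatum list also holds, at 0.66 ± 0.16. Six3 lost the call without hypothalamus replicate 2, its highest value (1.67), or without brain replicate 4 (adjusted p up to 0.126). Without brain replicate 1, 5 of the 16 passed, with Ndn (0.43, adjusted p = 0.0233) and Sparc (0.85, adjusted p = 0.0351) added. Nkx2-2, a homeobox gene of the ventral neural tube and the oligodendrocyte lineage, was higher by the feature NKX2-2g-s2 (0.56 ± 0.12) and not past the threshold by NKX2-2g-s1 (0.17 ± 0.15).

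Other genes among the 15 largest differences upward have varied roles. Pcbd1, an enzyme that recycles the cofactor of the aromatic amino acid hydroxylases, was 0.97 ± 0.16 higher, and Ngb, which encodes neuroglobin, an oxygen-binding protein of neurons, was 0.85 ± 0.14 higher. Rarres2, which encodes the chemoattractant chemerin, was 0.84 ± 0.14 higher. Each of the 3 was past the threshold in all 8 fits that left out 1 furosemide array. Spock3, which encodes a secreted proteoglycan, read 2.58, 2.56, 0.99 and 2.35 in hypothalamus, against 0.54, 0.71, 0.74 and 0.72 in brain. Hypothalamus replicate 3 was far below the other 3 arrays and still above every brain array. Spock3 differed by 1.44 ± 0.36 (limma adjusted p = 0.0200), and it missed the threshold without brain replicate 1 or without hypothalamus replicate 1, 2 or 4 (adjusted p up to 0.0921). Phyhipl differed by 0.97 ± 0.25 and missed it without any one of 6 arrays, brain replicates 1 and 2 and the 4 of the hypothalamus (adjusted p up to 0.130). In furosemide gratified, ACTH, ACTH gratified and control mice Phyhipl differed by 0.17, -0.002, -0.145 and 0.05. Spock3 differed by 0.76, 0.13, 0.02 and 0.38 there, and neither gene passed the threshold in these treatments.

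Thalamus and habenula markers were higher on several features, though neither region is named in the label. Prkcd, a protein kinase C isoform abundant in thalamus, read 0.80, 0.96, 0.59 and 0.25 in hypothalamus, against -0.83, -0.07, -0.86 and -0.40 in brain. Gbx2, a homeobox factor of the thalamus, read 1.17, 0.99, 0.94 and 0.95 in hypothalamus, against 0.32, 0.02, 0.13 and 0.49 in brain. Both genes separated the tissues, with the widest spread in Prkcd. Prkcd differed by 1.19 ± 0.27 and Gbx2 by 0.77 ± 0.12. Of 16 measured list members 4 were higher and none lower, against 1.18% and 1.29% of all features, with a median of 0.25. Rgs16 (0.71 ± 0.15) and Ramp3 (0.63 ± 0.17), a receptor-modifying protein, were the others. Ramp3 missed the threshold without any one of brain replicates 1 and 3 and hypothalamus replicates 1, 2 and 3 (adjusted p up to 0.177). How much thalamus was dissected with either piece was not tested.

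Striatal genes also lay on the hypothalamic side, although the striatum itself belongs to the remaining brain. Drd1, the D1 dopamine receptor, read 1.58, 1.43, 1.34 and 1.68 in hypothalamus, against 0.35, 1.51, 0.70 and 0.46 in brain. Ppp1r1b, which encodes the dopamine-regulated phosphatase inhibitor DARPP-32, read 2.68, 2.70, 2.70 and 2.66 in hypothalamus, against 1.90, 2.55, 2.51 and 2.48 in brain. Brain replicate 2 overlapped the hypothalamus for Drd1, and brain replicate 1 was the lowest for both. Of 21 measured striatum markers, 20 lay above 0, against 5431 of all 9554 features, with a median of 0.38. By limma 4 were higher, against 1.18% of all features: Drd1 (0.75 ± 0.18), Six3, Rgs2 (0.58 ± 0.14) and Rarb (0.57 ± 0.16). Without brain replicate 1 the median was 0.20 and 1 of the 21 passed, Six3, with Drd1 having an adjusted p of 0.0848, Rgs2 of 0.0887 and Rarb of 0.137. Rarb missed the threshold in each of the 8 fits that left out an array. Of 19 measured genes of dopamine and DARPP-32 signalling, a list that shares Drd1 and Ppp1r1b with the striatum markers, Drd1 was the 1 past the threshold and 17 lay above 0, with a median of 0.32, or 0.19 without brain replicate 1, where Ddc, which makes dopamine from its precursor, passed in place of Drd1 (limma adjusted p = 0.0138).

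The striatum list was high on the furosemide hypothalamus arrays themselves. Its median was 1.47 to 1.66 on them, against 0.91 to 1.40 on furosemide gratified, 0.89 to 1.12 on ACTH, 0.66 to 1.12 on ACTH gratified and 0.84 to 1.37 on control hypothalamus arrays. Drd1 was 0.58 higher in furosemide than in control hypothalamus, with a limma adjusted p of 0.499. The list's tissue difference had a median of 0.38 in furosemide, 0.22 in furosemide gratified, 0.32 in ACTH, -0.04 in ACTH gratified and 0.01 in control mice, and no member was past the threshold in the last 4. Of all features, 0.984% were higher and 0.649% lower in furosemide gratified, 0.618% and 0.607% in ACTH, 0.366% and 0.188% in ACTH gratified, and 1.07% and 1.75% in control mice. The tissue difference of Drd1 in furosemide minus that in control mice was 0.77 (limma adjusted p = 0.227), so a change with treatment was not shown. Whether the pieces held different amounts of striatum was not tested.

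Among the features tied on at most 2 of the 4 arrays of either group, Neurod2, Neurod6 and Fezf2, transcription factors of cortical and hippocampal excitatory neurons, were lower in the hypothalamus. Neurod2, a basic helix-loop-helix factor of these neurons, read 0.80, 0.60, 0.69 and 0.87 in hypothalamus, against 2.08, 2.04, 2.16 and 2.17 in brain. Neurod6, a related factor, read 0.53, 0.47, 0.16 and 0.57 in hypothalamus, against 1.40, 1.62, 1.79 and 1.74 in brain. Fezf2, a factor of deep-layer projection neurons, read 0.65, 0.55, 0.59 and 0.88 in hypothalamus, against 1.47, 1.67, 1.77 and 1.79 in brain. The brain arrays lay above the hypothalamus arrays without overlap in all 3. The differences were -1.37 ± 0.18 for Neurod2, 0.386 of the brain ratio, -1.20 ± 0.21 for Neurod6 and -1.01 ± 0.19 for Fezf2, with limma adjusted p of 5.21e-06, 0.000448 and 0.000982.

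Of 34 measured cortex and hippocampus markers, 9 were lower and none higher by limma, against 1.29% and 1.18% of all features. Below 0 lay 28, against 4123 of all 9554 features, and the median was -0.33. Nptx1, a secreted synaptic pentraxin, differed by -0.83 ± 0.12, Neurod1 by -0.82 ± 0.20, Tbr1, a T-box factor of early cortical neurons, by -0.75 ± 0.19, and Bhlhe22 by -0.71 ± 0.17. Emx1, a homeobox factor of the developing cortex, differed by -0.69 ± 0.16. Neurod1, which cerebellar granule cells also express, read 2.05 on brain replicate 1 and 1.33 to 1.35 on the other brain arrays, and missed the threshold without that array (-0.65, adjusted p = 0.0990) or without hypothalamus replicate 3. Bhlhe22 missed it without brain replicate 1 or 4 or hypothalamus replicate 2 (adjusted p up to 0.0577), Emx1 without brain replicate 4 (0.0518), and Tbr1 without any one of 6 arrays, brain replicates 2, 3 and 4 and hypothalamus replicates 1, 2 and 3 (up to 0.0993). The list had a median of -0.40 and 9 calls without brain replicate 1.

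Slc30a3, Rtn4rl2 and Cort were also among the 15 named genes that were lower. Slc30a3, which loads zinc into glutamatergic vesicles, read 0.63, 0.45, 0.63 and 0.76 in hypothalamus, against 1.45, 1.83, 1.85 and 1.88 in brain. Rtn4rl2, a receptor of the Nogo receptor family that limits axon growth, read -0.24, -0.42, -0.36 and -0.36 in hypothalamus, against 0.86, 0.78, 0.97 and 0.65 in brain. Cort, which encodes cortistatin, a peptide of cortical interneurons, read -0.14, -0.04, -0.08 and -0.04 in hypothalamus, against 0.52, 1.07, 1.05 and 1.20 in brain. All 3 genes separated the tissues, as the naming rule required, with brain replicate 1 the lowest brain array for Slc30a3 and Cort. Their differences were -1.13 ± 0.20, -1.16 ± 0.24 and -1.03 ± 0.18, with limma adjusted p of 0.000445, 0.00420 and 0.000365.

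The remaining genes among the 15 largest differences downward are given in 2 sets, by whether they lay below or above 0 in furosemide gratified mice. Myl4 (-1.01 ± 0.17), a myosin light chain, Adra1d (-0.96 ± 0.16), an alpha-1 adrenergic receptor, Dkkl1 (-0.93 ± 0.18), Nrn1 (-0.87 ± 0.19), which encodes neuritin, and Rtn4r (-0.97 ± 0.24), the Nogo receptor, were also below 0 in gratified, ACTH and control mice. Rtn4r missed the threshold without any one of brain replicates 2, 3 and 4 and hypothalamus replicate 3 (adjusted p up to 0.0716). The 4 features Asph by ASPHg-s2, Ifna7 by IFNA7g-s2, Rpl34 and Acot9 by ACOT9g-s2 differed by -0.88, -0.88, -0.86 and -0.85 after furosemide. Their differences in gratified mice were 0.26, 0.05, 0.10 and 0.03, and in control mice -0.50, -0.04, 0.51 and 0.05. For none of the 4 did the tissue difference change past the threshold against gratified or control mice. The smallest limma adjusted p was 0.0820, for Rpl34 against controls. Of the other features of these genes none passed the threshold, with 0.21 ± 0.13 for ACOT9g-s1, 0.02 ± 0.11 for ASPHg-s1, -0.22 ± 0.16 for IFNA7g-s1 and -0.73 ± 0.21 for ASPHg-s3, the last at a limma adjusted p of 0.0507. Ifna7 has near-identical paralogs and Rpl34 processed copies, so their signals cannot be assigned to 1 gene with certainty. Asph missed the threshold without any one of brain replicates 1 and 4 and hypothalamus replicates 1, 2 and 3, Rpl34 without any one of brain replicates 1, 2 and 3 and hypothalamus replicates 1, 2 and 3, and Acot9 without hypothalamus replicate 2 or 3 (adjusted p up to 0.103, 0.0909 and 0.0666).

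A pair of features with larger falls, Fabp5, a fatty acid-binding protein, and Ect2, a cytokinesis factor, were outside the naming rule because 3 of their 4 brain values were tied, and are named here after their values were seen. Fabp5 read -1.25, -1.52, -1.52 and -1.08 in hypothalamus, against 0.38, -0.08, -0.01 and 0.07 in brain, and Ect2 read -1.20, -1.12, -1.22 and -0.90 in hypothalamus, against 0.20, 0.03, 0.05 and 0.42 in brain. Both separated the tissues without overlap, by -1.43 ± 0.27 and -1.28 ± 0.28. In control mice their differences were -0.22 and 0.05, and in gratified mice -0.26 and -0.11. For neither did the tissue difference change past the threshold against control or gratified mice. In all, 20 of the 123 lower and 6 of the 113 higher features were tied on more than 2 of the 4 arrays of either group.

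Immediate early genes, which neurons switch on when they fire, leaned to the brain side. Arc, whose product remodels active synapses, read 0.78, 0.61, 0.56 and 0.80 in hypothalamus, against 1.20, 1.66, 1.65 and 1.24 in brain. Fos, the most used activity marker, read -1.43, -1.53, -1.51 and -1.35 in hypothalamus, against -1.31, -1.41, -1.32 and -1.30 in brain. The tissues were separated for Arc and overlapped for Fos. Of 28 measured members, 3 were lower and none higher by limma, against 1.29% and 1.18% of all features. Below 0 lay 24, against 4123 of all 9554 features, and the median was -0.22. Nr4a2 differed by -0.77 ± 0.14, Arc by -0.75 ± 0.20 and Bdnf by -0.50 ± 0.14, while Fos (-0.12 ± 0.11), Junb (-0.33 ± 0.14) and Egr1 (-0.22 ± 0.14) were not past the threshold. Arc missed it without any one of brain replicates 2 and 3 and hypothalamus replicates 1, 2 and 3 (adjusted p up to 0.114), and Bdnf without any furosemide array except brain replicate 1 (up to 0.140). The list's median was -0.21 in furosemide gratified, -0.16 in ACTH, -0.11 in ACTH gratified and -0.19 in control mice, with 1, 3, 1 and 5 members lower.

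Receptors and salt-handling genes differed little, where 1.18% of all features were higher and 1.29% lower. Of 29 measured receptors for feeding, fluid and reproductive hormones, Npy2r, a neuropeptide Y receptor (0.49 ± 0.12), and Trhr, the receptor of thyrotropin-releasing hormone (0.40 ± 0.11), were higher, and Crhr1, the main receptor of corticotropin-releasing hormone (-0.43 ± 0.11), was lower, with a list median of -0.01. Each of the 3 missed the threshold in some fits without 1 array: Npy2r without brain replicate 2 or 3 or hypothalamus replicate 3, Trhr without any array except hypothalamus replicate 1, and Crhr1 without any array except brain replicate 2 or hypothalamus replicate 4 (adjusted p up to 0.0869, 0.151 and 0.156). Oxtr, the oxytocin receptor, differed by -0.19 ± 0.08, Agtr1a, an angiotensin receptor, by -0.01 ± 0.09, and Nr3c2, the mineralocorticoid receptor, by -0.17 ± 0.08, none past the threshold.

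Of 28 measured genes of sodium and water handling, 1 was higher, against 1.18% of all features, and the median was -0.04. It was Foxp2, a transcription factor of sodium-sensing brainstem neurons and other regions (0.42 ± 0.10). Foxp2 missed the threshold without any one of brain replicates 1 and 4 and hypothalamus replicates 1 and 2 (adjusted p up to 0.0887). Agt, the angiotensin precursor that astrocytes make, read 2.20, 2.13, 2.24 and 2.13 in hypothalamus, against 2.14, 1.05, 0.85 and 1.52 in brain. Brain replicate 1 lay within the hypothalamus values and the other brain arrays below them. The difference was 0.78 ± 0.23 (limma adjusted p = 0.0524), and without brain replicate 1 it was 1.03 and passed (adjusted p = 0.00617). Scn7a, the sodium-sensing channel, differed by -0.20 ± 0.10, not past the threshold.

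The other lists had few calls, to be set beside 1.18% higher and 1.29% lower of all features. Oxidative phosphorylation genes, which encode subunits of the respiratory chain, had none of 56 measured members past the threshold by limma. Yet 54 lay above 0, against 5431 of all 9554 features, with a median of 0.18 and differences from -0.20 to 0.41. In 37 of the 56 the 4 hypothalamus values lay above the 4 brain values, against 14.3% of all features. The list's median was 0.12 in furosemide gratified, 0.09 in ACTH, 0.16 in ACTH gratified and -0.01 in control mice. Of the voltage-gated channels, 1 of 50 passed, Kcna5 (0.54 ± 0.12), with a median of -0.10. Among 24 GABA neuron genes 1 was higher, Gabrg1, a receptor subunit (0.53 ± 0.14), which missed the threshold without brain replicate 4 or hypothalamus replicate 1 or 3 (adjusted p up to 0.0900), and among 30 glutamate receptor and postsynaptic genes 1 was lower, Dlgap1 (-0.43 ± 0.10). Of 21 genes of peptide processing, Sytl4, a granule-docking protein, was the 1 higher (0.52 ± 0.10).

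Of all features 1.18% were higher and 1.29% lower, which is the background for the next lists. Clock genes counted 3 higher of 25, and those were Avp, Rgs16 and Prok2, already named. The core genes Clock and Per2 differed by 0.01 and -0.12. Cerebellum markers had 1 of 17 lower, Neurod1, and midbrain and hindbrain markers 1 of 21, Nr4a2. Of 30 oligodendrocyte genes Nkx2-2 alone was higher, with a median of 0.03, and of 21 genes of ependyma, tanycytes and choroid plexus Rarres2 alone. Ttr, the choroid plexus carrier of thyroxine, read 3.17, 1.52, 3.15 and 2.89 in hypothalamus, against 3.12, 3.12, 2.82 and 2.92 in brain, with hypothalamus replicate 2 far below the rest. Astrocyte, microglia, blood vessel and glucocorticoid-responsive lists, of 26, 21, 27 and 16 measured genes, had no member past the threshold by limma, and their medians ran from -0.01 to 0.08. The pituitary list had 2 of 10 higher, Pomc and Nkx2-1, both already named. The list's median difference was 0.03, and 8 of the 10 lay above 0, against 5431 of all 9554 features. Its median on single arrays was 0.62 to 0.91 in hypothalamus, against 0.24 to 0.47 in brain. Whether the pieces held pituitary was not tested.

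**Figure D3:**
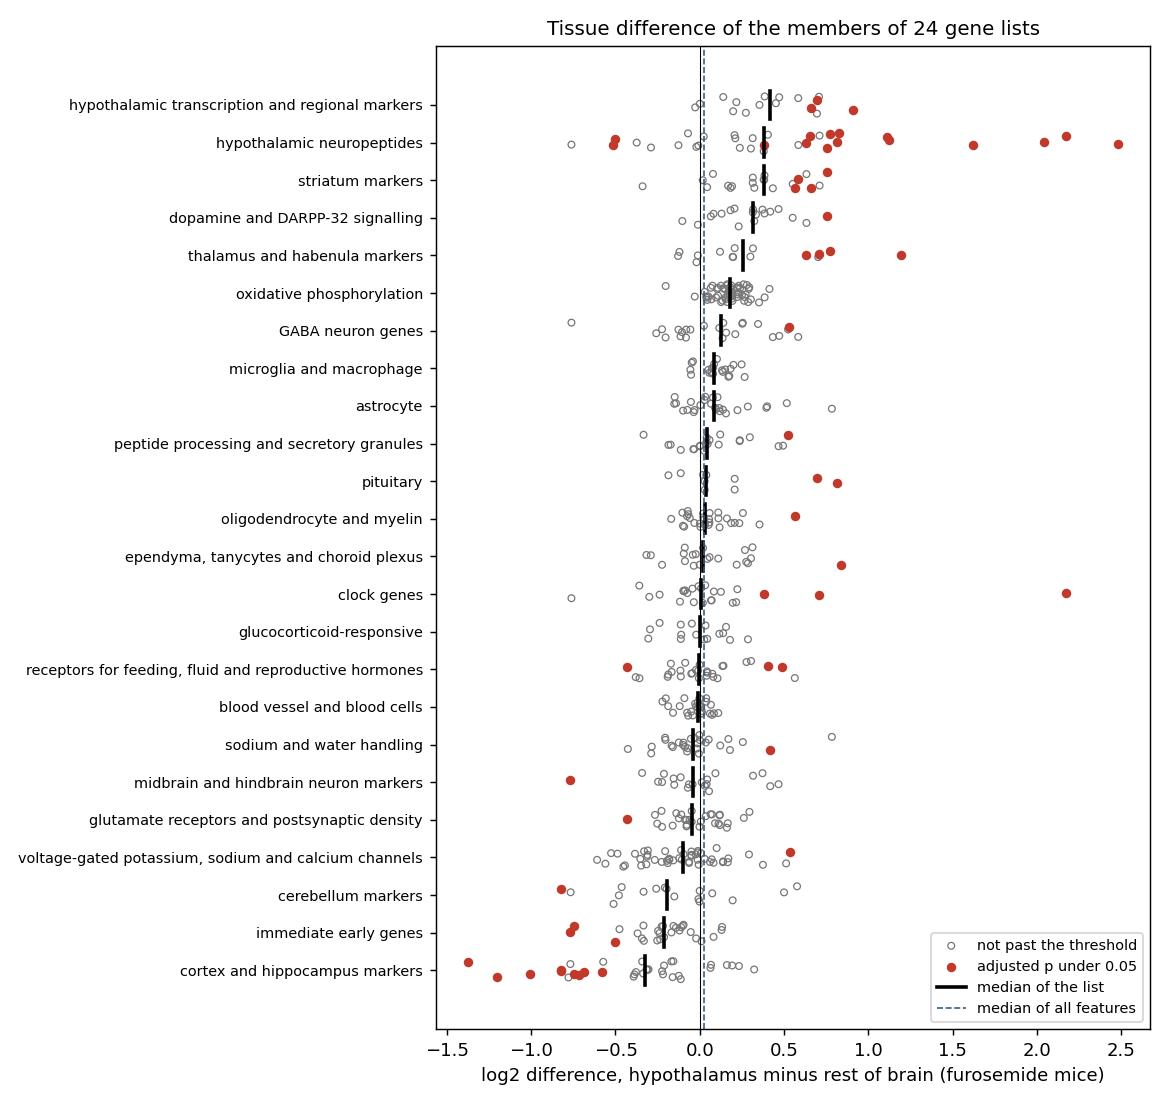
Log2 difference between hypothalamus and rest of brain in furosemide mice (horizontal axis) for every measured member of 24 gene lists, sorted by median. Filled red points have a limma adjusted p under 0.05, open points do not, black bars are list medians and the dashed line is the median of all features (0.02). The neuropeptide list reaches 2.48 at Oxt, the cortex and hippocampus list reaches -1.37 at Neurod2, and the oxidative phosphorylation points gather to the right of 0 with none filled.

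At the edge of the threshold, Bdnf, Scube2 and Ppp1r3f were just inside, with limma adjusted p of 0.0486, 0.0492 and 0.0492, and Xpr1, Alox12b and Vip just outside, at 0.0502, 0.0503 and 0.0503. Scube2 differed by 0.42 ± 0.12 and Xpr1 by 0.40 ± 0.11. Bdnf differed by -0.50, Ppp1r3f by 0.39, Alox12b by -0.29 and Vip by -0.76. These neighbours thus varied in size and direction, while their adjusted p differed little.

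The same contrast was read in the other treatments, which share no array with these 8. Of the 113 higher features, 55 were also higher in furosemide gratified mice (48.7% of these, 58.5% of the 94 there), 33 in ACTH (29.2%, 55.9% of 59), 22 in ACTH gratified (19.5%, 62.9% of 35) and 47 in control mice (41.6%, 46.1% of 102). Of the 123 lower features, 33 were lower in furosemide gratified (26.8%, 53.2% of 62), 22 in ACTH (17.9%, 37.9% of 58), 12 in ACTH gratified (9.76%, 66.7% of 18) and 39 in control mice (31.7%, 23.4% of 167). No feature called in furosemide mice was called the other way in another treatment. Past the threshold in all 5 treatments were 17 higher and 8 lower features, and in furosemide mice alone 46 and 73, which does not show that those differ from the other treatments. Over all 9554 features, which are not independent of each other, the differences correlated with those of furosemide gratified mice at r = 0.63, of ACTH mice at 0.50 and of control mice at 0.27.

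Oxt, Avp, Hcrt, Pmch and Pomc passed the threshold in each of the 5 treatments. Oxt was higher by 2.48 in furosemide, 2.75 in furosemide gratified, 2.32 in ACTH, 1.86 in ACTH gratified and 2.66 in control mice, and Avp by 2.17, 2.39, 2.31, 1.65 and 2.49 in the same order. Some other peptide genes did not pass in all 5: in ACTH gratified mice Gal differed by 0.64 (limma adjusted p = 0.0630) and Nts by 0.30 (0.356). Pmch was higher by 1.62, 2.20, 1.81, 1.42 and 2.33, and the difference between furosemide and control mice, -0.71, was not past the threshold (limma adjusted p = 0.405). All of the 15 genes with the largest differences upward were above 0 in gratified and control mice, and 12 and 13 of them were called there. Of the 15 downward, 11 were below 0 in gratified and 13 in control mice, with 10 and 9 called. None of these 30 genes had a tissue difference that changed past the threshold between furosemide and furosemide gratified, ACTH or control mice, the smallest limma adjusted p being 0.0820 for Rpl34 against controls.

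**Figure D4:**
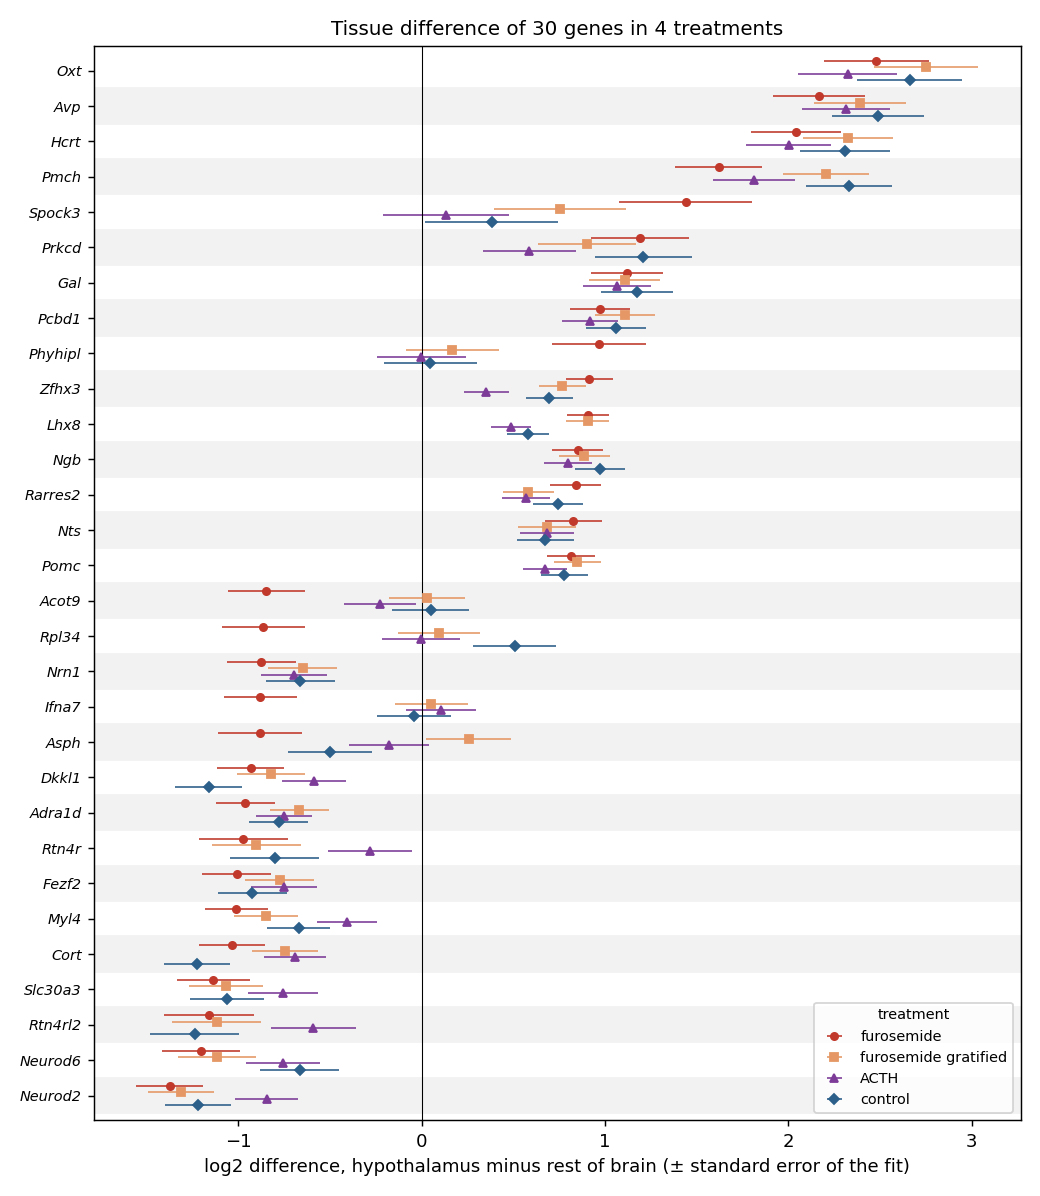
Log2 difference between hypothalamus and rest of brain (horizontal axis, bars are standard errors of the fit) for the 15 highest and 15 lowest named genes in furosemide, furosemide gratified, ACTH and control mice. Oxt lies between 2.32 and 2.75 in the 4 treatments, while Acot9, Rpl34 and Ifna7 are below 0 in furosemide mice and near or above it in gratified and control mice.

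The number series could be separated from the tissue only through the gratified arrays, which hold both series in both tissues. With the series as a factor, 24 features were higher and 8 lower, and 19 of the 113 and 6 of the 123 original calls were among them. Oxt (2.55, limma adjusted p = 0.000909), Avp (2.31), Hcrt (1.95), Pmch (1.70), Gal (1.23), Agrp (1.00), Pomc (0.84), Lhx8 (1.10), Nkx2-1 (0.79), Gbx2 (0.91) and Neurod2 (-1.36, 0.00898) still passed. Of the neuropeptide list 8 members were higher, of the cortex and hippocampus list 1 lower, and of the immediate early genes none lower. In the zero-padded series of furosemide gratified mice, with 2 hypothalamus arrays and 1 brain array, 104 of the 113 higher features had the same sign. Of the 123 lower features 106 did, where 50.4% and 49.6% of all features did. Within the 2-digit series, with 2 and 3 arrays, 110 and 118 did, against 52.7% and 47.4%. In ACTH mice 110 and 92 did, against 58.8% and 41.2%, and in ACTH gratified mice 97 and 103, against 48.9% and 51.1%.

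The last question was whether furosemide changed the tissue difference itself. Against control mice, 6 of 9554 features passed (0.0628%, limma), against furosemide gratified mice 2 (0.0209%) and against ACTH mice 0 (0%), with 1084 (11.3%), 248 (2.6%) and 504 (5.28%) at an unadjusted p under 0.05. Number series and tissue are arranged alike in furosemide and control mice. None of the features that stood for the listed genes was among those that passed.

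Mtmr1, a lipid phosphatase, by the feature MTMR1g-s1, read 0.27, 0.31, 0.33 and 0.00 in furosemide hypothalamus and -0.17, 0.01, 0.14 and 0.03 in furosemide brain, against means of -0.08 in control hypothalamus and 0.40 in control brain. The furosemide groups overlapped, through hypothalamus replicate 4. Its tissue difference was 0.22 in furosemide and -0.48 in control mice, and these differed by 0.70 ± 0.14 (limma adjusted p = 0.0314). It passed in 3 of the 8 fits that left out a furosemide array, with adjusted p up to 0.127.

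Ccr4, a chemokine receptor, read -0.56, -0.48, -0.68 and -0.46 in furosemide hypothalamus and 0.07, -0.08, 0.01 and 0.09 in furosemide brain, against means of -0.31 in control hypothalamus and -0.44 in control brain. Its tissue difference was -0.57 in furosemide and 0.14 in control mice. Rlbp1, a retinal-binding protein, had -0.45 in furosemide and 0.26 in control mice, with all 4 furosemide brain values tied. Hnrnpul1, an RNA-binding protein, by HNRNPUL1g-s2, had -0.57 in furosemide mice, 0.38 in gratified and 0.36 in control mice, and passed against both, at limma adjusted p of 0.0101 and 0.0134. The Hnrnpul1 values were tied on 3 of the 4 arrays of each control group and on 2 of 4 in furosemide hypothalamus. Ccr4 and Rlbp1 each passed in 7 of the 8 fits that left out an array and Hnrnpul1 in 8 against controls and 6 against gratified mice. With the compared groups only, limma adjusted p against controls was 0.0874 for Ccr4, 0.107 for Rlbp1 and 0.0914 for Hnrnpul1. For Hnrnpul1 against gratified mice it was 0.2335. The features OR2A5gs against controls and C20orf57g-s2 against gratified mice matched no mouse gene here and differed by -0.83 and 0.57.

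Within a tissue, furosemide against control gave few calls by limma: in hypothalamus 1 feature (0.0105%), OR2A5gs, was lower (-0.56), and in brain 3 features (0.0314%) were higher, Cadm4 and Sema7a, both cell-surface adhesion or guidance proteins, and Ccr4 (0.78, 0.49 and 0.47). At an unadjusted p under 0.05 there were 589 features in hypothalamus (6.16%) and 990 in brain (10.4%). Oxt and Avp in hypothalamus differed from controls by -0.01 and 0.00 on the log2 scale.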

How the data were processed

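The deposited table holds, for 9554 features on 44 arrays, values taken as the authors' log2 ratios of tissue over reference RNA; base 2 was assumed. The submitters' processing notes name limma, with no version. How background was corrected and arrays were normalized, the base and any centring: not given in the sources used here. Scanner files, slides and signal over background were not used here. Of the feature names, 8651 matched a mouse symbol of the RefSeq table (GRCm38.p6), 579 matched 1 synonym, 29 several and 295 none; the last 2 kinds keep the feature name.

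Groups were taken from the labels, and tissues were compared unpaired, since no label pairs arrays by animal; p-values therefore reflect only spread between these arrays, which may be technical, and having few arrays limits precision. Group means were fitted over all 44 arrays with limma 3.58.1 (lmFit, eBayes) in R 4.3.3, checked on simulated data, with two-sided tests, Benjamini-Hochberg adjustment over 9554 features, a threshold of 0.05 and no minimum fold. The 24 gene lists and the genes compared were chosen with earlier results of these data known. A gene with several features entered a list by the feature with fewest tied values. Named are the 15 highest and 15 lowest called genes that do not overlap and are tied on at most 2 of 4 arrays of a group, list members, up to 10 genes per comparison of tissue differences, and the 3 genes on either side of the threshold. Deviations of same-numbered arrays of the tissues correlated at r 0.06, -0.04, 0.02 and 0.09, and these arrays were not treated as pairs. So few values cannot exclude that both pieces came from the same mice. Alternatives were other sets of arrays and scalings, array weights, a trended robust prior, tied features left out, the number series and the replicate block. A few results are not reported here.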

Additional observations from a re-analysis of the deposited data

Results flagged for a closer look

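Single arrays stood far from the other 3 of their group (Dixon's test) in 16 of 126 groups of 4 tested. Chance gives about 1 in 20 for a single test, but these groups share the same arrays. No excess over chance can therefore be read from the count. Brain replicate 1 was apart in Neurod1 (2.05, others 1.33 to 1.35), Pdyn (0.61, others 1.33 to 1.48), Rgs2 (-0.11), Slc30a3 (1.45), Dlgap1 (1.98) and Spock3 (0.54). Brain replicate 4 was apart in Pmch (1.80, others 0.48 to 0.67), Grp (1.65) and Rpl34 (-0.0535), and brain replicate 2 in Ghrh (0.0816). Hypothalamus replicate 3 was apart in Spock3 (0.99, others 2.35 to 2.58) and Nr4a2 (-0.32), and replicate 4 in Asph (-0.63) and Tbr1 (0.96).

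The tissue difference of furosemide mice differed from that of control mice by limma's test of the difference in Mtmr1 (0.70), OR2A5gs (-0.83), Hnrnpul1 (-0.93), Ccr4 (-0.71) and Rlbp1 (-0.70), and from that of furosemide gratified mice in C20orf57g-s2 (0.57) and Hnrnpul1 (-0.95). Tied values filled 3 of 4 furosemide brain arrays for OR2A5gs, 4 of 4 for Rlbp1 and, for Hnrnpul1, 3 of 4 arrays of each control group. Their part in these differences was not tested.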

How the results depend on the processing

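Of the 113 higher and 123 lower features, fits without 1 furosemide array gave 59 to 88 higher and 67 to 120 lower; the higher count moved by over 1.5 times without hypothalamus replicate 3 (59), brain replicate 4 (67), brain replicate 2 (70) or hypothalamus replicate 1 (72), and the lower count without hypothalamus replicate 3 (67), hypothalamus replicate 2 (72) or brain replicate 2 (78). Past the threshold in all 8 such fits were 45 and 49. Fitting only the furosemide arrays, whose SD was the smallest of the 10 groups, gave 676 higher and 400 lower, array weights 1195 and 796, the number series as a factor 24 and 8, and quantile normalization 72 and 107. Array medians set to 0, the trended robust prior and leaving out tied features stayed within 1.5 times. Only the 63 named or listed genes past the threshold were followed under these alternatives: none of them changed sign, 50 fell short of the threshold with the series factor and 14 under quantile normalization.

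The 6 features whose tissue difference differed from that of controls became 2 with the compared groups only, 11 under quantile normalization, 507 with array weights, 1 without tied features, 11 with the series factor, and 3 to 14 without 1 furosemide array (3 without hypothalamus replicate 2 or 3, 11 without hypothalamus replicate 4 and 14 without brain replicate 3). The 2 against furosemide gratified became 0 with the compared groups only, with medians set to 0 or with quantile normalization, 7 with the series factor, and 0 to 3 without 1 array (0 without brain replicate 2, 1 without hypothalamus replicate 1). The 0 against ACTH became 28 with the compared groups only, 15 with array weights and 0 to 1 without 1 array. The cause was not tested. With the replicate number as a block, 100 features were higher and 122 lower, and 14 differed from controls. No label says whether the numbers pair the samples.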
